A study of Mus musculus with 2 samples.

Results

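The genes described here encode the major histocompatibility complex (MHC) class II antigen presentation machinery of the mouse and Ciita, the coactivator that switches it on. They were chosen by name: H2-Aa, H2-Ab1, H2-Eb1, H2-DMa, H2-DMb1, H2-DMb2, H2-Oa, H2-Ob, Cd74 and Ciita, 10 of the 37074 gene names carried by the array. All 10 had at least 1 probe, and 19 probes carried their names. The RNA came from macrophages of the peritoneal cavity of MeXis null mice, which lack a long noncoding RNA gene close to Abca1, and of WT mice. The strain of both is given as bl6, the cells were kept in DMEM with serum, and no treatment is named. Each genotype was 1 one-colour Agilent array carrying a pool of 3 samples, so the spread between animals was not measured, no test of genotype is possible, and every value below compares these 2 arrays.

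MHC class II molecules present peptides from ingested material to CD4+ T cells. An alpha and a beta chain pair in the endoplasmic reticulum with the invariant chain, which blocks the groove and steers the complex to the endosome. There the invariant chain is cut away, and the DM heterodimer exchanges its last fragment for antigenic peptide, while the DO heterodimer restrains DM. Ciita does not bind DNA itself: it is recruited to class II promoters by the RFX complex, CREB and NF-Y, which sit on the X, X2 and Y boxes. B cells and dendritic cells carry class II constantly, whereas most resident macrophages of the peritoneal cavity carry little and a smaller population carries much.

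The promoter sequences are shown because the X and Y boxes are the feature through which Ciita acts on these genes. RefSeq promoters (GRCm38.p6, 250 bases before to 50 bases after the start site) were matched for 7 of the 10 members: H2-Aa, H2-Eb1, H2-DMa, H2-DMb1, H2-DMb2, H2-Oa and H2-Ob. In the lines below, on the strand of each gene, capitals mark the Y box core TGATTGG and, where present, the fixed letters of the X box core with the start of X2, AACNNNTGATG; H2-Aa and H2-Oa held the Y box core only.
H2-Eb1 (chr17:34305772-34305818, plus strand): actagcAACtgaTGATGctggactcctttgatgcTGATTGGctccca
H2-Aa (chr17:34287861-34287918, minus strand): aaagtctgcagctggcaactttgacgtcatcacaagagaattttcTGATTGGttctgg
H2-DMb1 (chr17:34153093-34153140, plus strand): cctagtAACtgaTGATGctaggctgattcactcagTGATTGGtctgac
H2-DMb2 (chr17:34145122-34145169, plus strand): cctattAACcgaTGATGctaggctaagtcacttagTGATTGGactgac
H2-Ob (chr17:34238814-34238858, plus strand): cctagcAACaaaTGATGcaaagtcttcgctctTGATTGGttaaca
H2-Oa (chr17:34092289-34092346, plus strand): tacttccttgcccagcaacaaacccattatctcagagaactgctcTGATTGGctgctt

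The Y box core stood between 45 and 92 bases upstream of the start site in these 6 genes, and in neither of the 2 H2-DMa promoters in the table. On the gene strand it was in 4.01% of all 32851 promoters of the same length, and in 7.82% on either strand. The X box core with X2 was followed by the Y box core after 15 to 30 bases in H2-Eb1 (a gap of 17 bases), H2-DMb1 (18), H2-DMb2 (18) and H2-Ob (15). Over all 32851 promoters, these 4 included, the pair was in 5 (0.0152%). These letters were chosen after the promoters had been read, so that share does not measure how rare the pair is. By a looser X core, AGNNACNGA, which overlaps it, 3 of the 7 genes matched on the gene strand against 9.23% of all promoters (17.7% on either strand), and the short Y core ATTGG was in all 7 against 22.1% (37.4%). A promoter without these letters may still bind the factors.

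**Figure D1:**
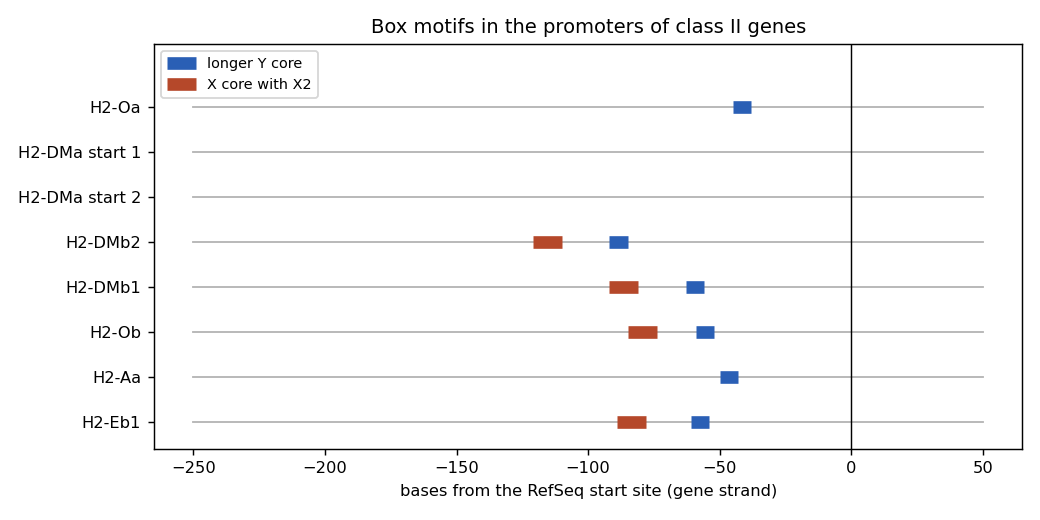
Positions of the longer Y core (blue) and of the X core with X2 (red) on the gene strand in the 8 RefSeq promoters of 7 members, in bases from the start site. The pair is present in 4 genes at nearly the same spacing, and neither motif is marked in the H2-DMa promoters.

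The probes that read H2-Ab1, H2-DMa and H2-Ob are printed because these genes differ in direction. The coordinates are mm9, per the file headers. The H2-DMa probe spans 564 genomic bases and the H2-Ob probe 369 for a length of 60 bases, so each crosses at least 1 intron and reads spliced RNA. The H2-Ab1 probe is the dimmest of 4.
H2-Ab1 (chr17:34404357-34404416): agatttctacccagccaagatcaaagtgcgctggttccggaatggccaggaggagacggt
H2-DMa (chr17:34274300-34274863): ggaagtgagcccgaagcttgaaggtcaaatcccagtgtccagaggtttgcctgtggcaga
H2-Ob (chr17:34380481-34380849): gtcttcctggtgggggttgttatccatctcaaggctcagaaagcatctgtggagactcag

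Signals below are scanner intensities with the scanner's own error. A difference is the log2 signal of MeXis null less that of WT, after the arrays were brought to one scale (the MeXis null signals multiplied by 0.950). By the scanner software's own criterion 26257 spots on MeXis null and 28463 on WT, of 59305 that were no controls, counted as well above background, and the lowest such signal was 27.3 on MeXis null and 12.1 on WT. Among 285 probes printed at least 5 times, repeat spots gave differences with a median SD of 0.47 per probe, so 0.91 was taken as the limit for a gene read from 1 spot. No member was printed more than once. The probe of the deleted gene (AI427809 in the files) read 8.44 on MeXis null and 12.3 on WT, dim on both by that criterion, and does not check the labels. The brighter of 2 probes of its neighbour Abca1, the cholesterol efflux transporter, read 1478 on MeXis null and 4339 on WT, a difference of -1.63.

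Of the 10 members, 7 had an unmarked probe well above background on both arrays: H2-Aa, H2-Ab1, H2-Eb1, H2-DMa, H2-Ob, Cd74 and Ciita. Ciita, H2-Aa and H2-Ob, 3 of the 7, were lower in MeXis null by 2-fold or more, and none was higher by that much. Among the 15488 genes measured in the same way, 4.55% were lower by 2-fold or more and 7.68% were higher. Below 0 lay 6 of the 7 members, all but H2-DMa, and 46.2% of all genes. At 1.5-fold, inside the limit of the spot spread, 5 of 7 were lower and 1 was higher, where 13.8% and 19.3% of all genes were. The median difference of the 7 was -0.70, beside 0.06 over all genes so measured. The plot of signals by probe shows each reading.

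**Figure D2:**
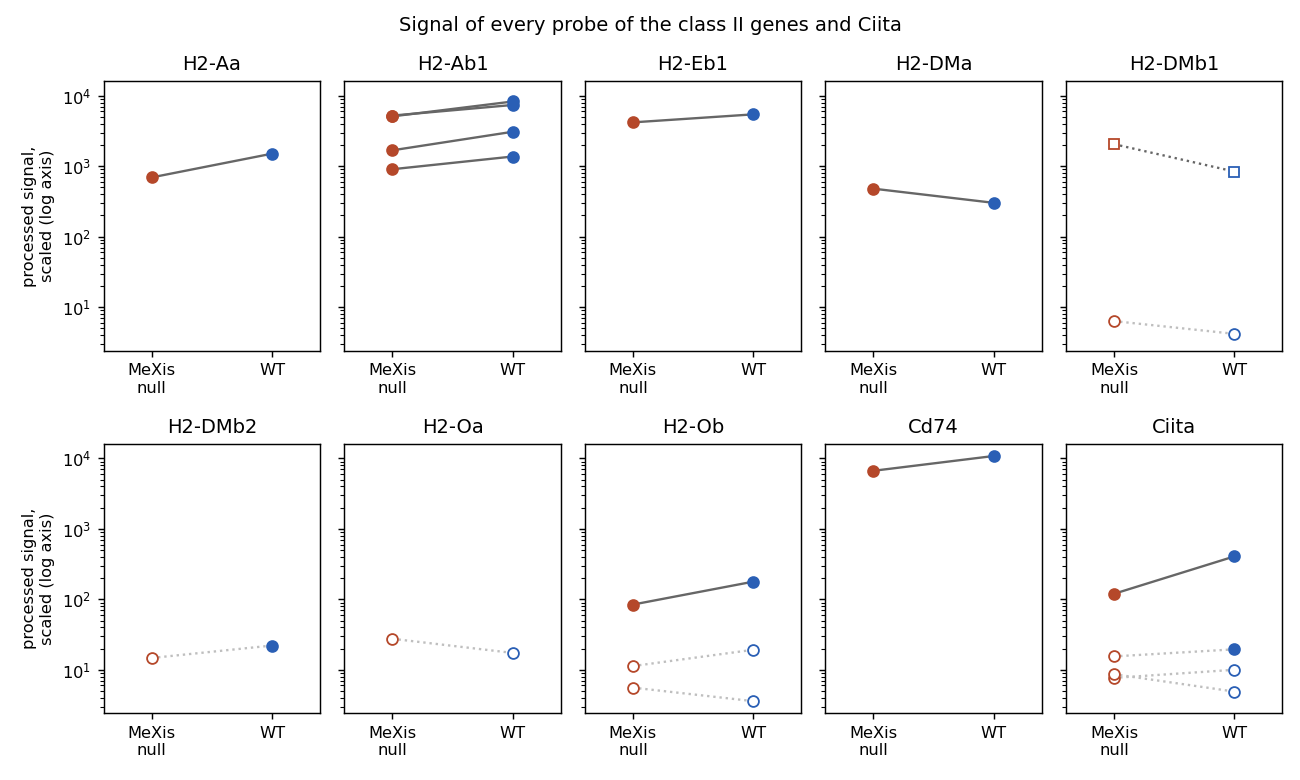
Processed signal of all 19 probes on the MeXis null array (red, left, scaled) and the WT array (blue, right), on a log axis. Filled symbols are well above background, open circles are not, and squares are the spot marked as an outlier; solid lines join probes above background on both arrays, which slope upward to WT but for H2-DMa and the marked H2-DMb1 spot.

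Ciita had the lowest difference among the members. Its brightest probe (mm9 chromosome 16, 10526458 to 10526517) read 126 ± 14.7 on MeXis null and 406 ± 40.8 on WT. The MeXis null signal was thus 4.63 times the lowest signal well above background on that array, and the WT signal 33.6 times that of WT. The difference was -1.76 with a scanner error of 0.22, or 3.39-fold lower, beyond both the scanner error and the spot spread. Among all genes so measured, 0.672% had a lower difference. The other 3 Ciita probes were dim. The one at 10525904 to 10525963 read 16.3 on MeXis null and 19.5 on WT, well above background on WT only, and allows no fold. The remaining pair was above background on neither array. The size of the Ciita difference therefore rests on 1 spot per array.

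The chains that make up the surface molecules were lower to different degrees. H2-Aa encodes the alpha chain of I-A, the class II molecule that mice of the C57BL/6 type display. Its only probe (mm9 chromosome 17, 34421285 to 34421344) read 730 ± 73.4 on MeXis null and 1507 ± 151 on WT, a difference of -1.12 with a scanner error of 0.20, or 2.17-fold lower. H2-Ab1 encodes the I-A beta chain and was read by 4 probes, all well above background and all lower in MeXis null. The brightest read 5356 ± 536 on MeXis null and 8269 ± 827 on WT, a difference of -0.70. The second read 5494 on MeXis null and 7381 on WT (-0.50), the third 1768 on MeXis null and 3077 on WT (-0.87), and the dimmest, printed above, 953 on MeXis null and 1371 on WT (-0.60). Over the 4 probes the difference averaged -0.67 ± 0.16 (SD over probes of the same pair of pools, which are not replicates). The 2 brightest probes overlap by 51 bases and so read nearly the same stretch. Each H2-Ab1 probe lay inside the spot limit of 0.91. Over 12 alternative settings H2-Ab1 ran from -1.45 with spike-in scaling to -0.25 with normexp background correction.

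H2-Eb1 encodes the beta chain of I-E. Its probe read 4403 ± 440 on MeXis null and 5432 ± 543 on WT, and the difference of -0.38 had scanner-error bounds of -0.78 to 0.02, which include 0. Mice of the C57BL/6 type display no I-E because their alpha chain gene is defective, and the probe of that gene, H2-Ea-ps, was above background on neither array.

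Cd74, the invariant chain, was read by 1 probe (mm9 chromosome 18, 60972075 to 60972132). It read 7020 ± 702 on MeXis null and 10810 ± 1081 on WT. The difference of -0.70, or 1.62-fold lower, exceeded the scanner error of 0.20 and lay inside the spot limit. It equals that of the brightest H2-Ab1 probe to 2 decimals.

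Of the DM genes, H2-DMa and the marked H2-DMb1 spot lay above 0, and H2-DMb2 was too dim for a direction. H2-DMa, the DM alpha chain, read 505 ± 51.2 on MeXis null and 302 ± 30.4 on WT, a difference of 0.67 with a scanner error of 0.21, inside the spot limit. It was above 0 under every setting tried but scaling to spike-in probes, where it was -0.08 and the median of all genes above background on 1 or both arrays was -0.72. H2-DMb1, a DM beta chain, read 2162 ± 195 on MeXis null and 840 ± 84.1 on WT at its bright probe, a difference of 1.29. The scanner software marked that spot on MeXis null as non-uniform, so it was left out of the counts above. Its second probe was above background on neither array. H2-DMb2, the near-identical second beta gene, read 15.5 on MeXis null and 22.1 on WT, above background on WT only, and no fold is given; its measured difference was below 0, at -0.59 with a scanner error of 0.67. Because the 2 beta genes are close copies, the probes may not tell them apart. H2-DMb1 and H2-DMb2 hold the spaced X and Y boxes shown above, as do H2-Eb1 and H2-Ob.

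Of the DO genes, H2-Ob, the beta chain of the DM inhibitor, read 88.8 ± 11.8 on MeXis null and 178 ± 18.4 on WT at its probe printed above. The difference was -1.08 with a scanner error of 0.24, or 2.11-fold lower, and 3.81% of all genes had a lower one. The MeXis null signal was 3.26 times the lowest signal well above background there. The other 2 H2-Ob probes and the single H2-Oa probe, for the DO alpha chain (29.1 on MeXis null and 17.4 on WT), were above background on neither array.

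**Figure D3:**
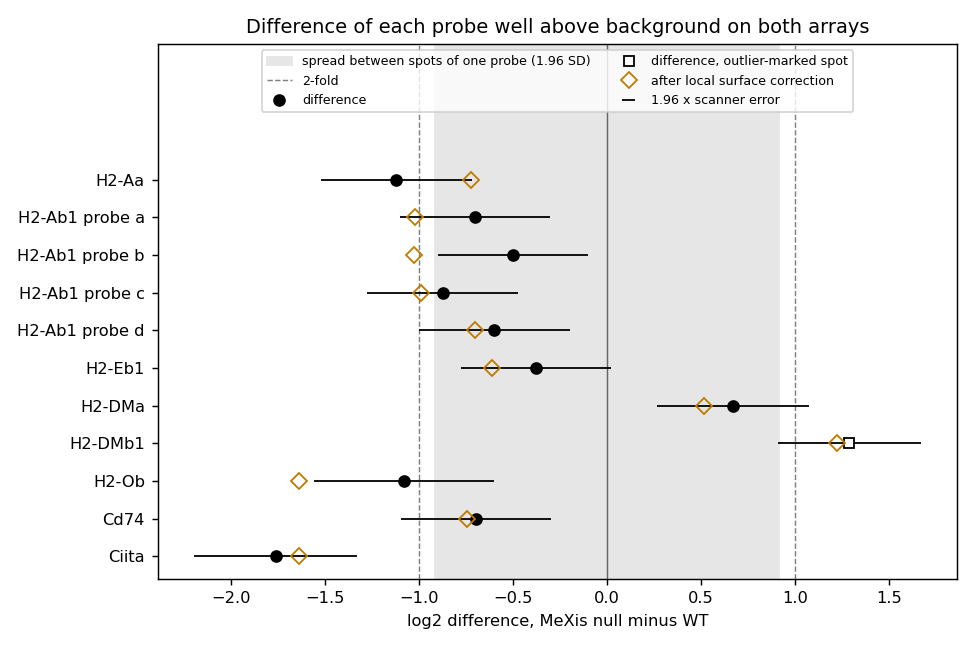
Log2 difference, MeXis null minus WT, of the 11 member probes well above background on both arrays, with bars for the scanner-error bounds; the grey band is the 0.91 limit of the spread between spots and diamonds are values after local surface correction. All probes of H2-Aa, H2-Ab1, H2-Eb1, H2-Ob, Cd74 and Ciita lie left of 0 and those of H2-DMa and H2-DMb1 right of it.

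Signal differences also varied over the array surface, and the members sit in places with different local offsets. A local surface correction subtracted the median difference of the 100 nearest bright spots, after which repeat spots of a probe had a median SD of 0.33. That local median was -0.40 at the H2-Aa spot and 0.56 at the bright H2-Ob spot. After correction H2-Aa was at -0.72, H2-Ab1 at -1.02, H2-Eb1 at -0.61, Cd74 at -0.74, H2-Ob at -1.64, Ciita at -1.64, H2-DMa at 0.52 and the marked H2-DMb1 spot at 1.22. The number lower by 2-fold or more was 3 again, where 3.42% of all genes were. It now held H2-Ab1 in place of H2-Aa, so the order of the 2 I-A chains depended on this choice. The 4 H2-Ab1 probes then ran between -1.03 and -0.70.

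**Figure D4:**
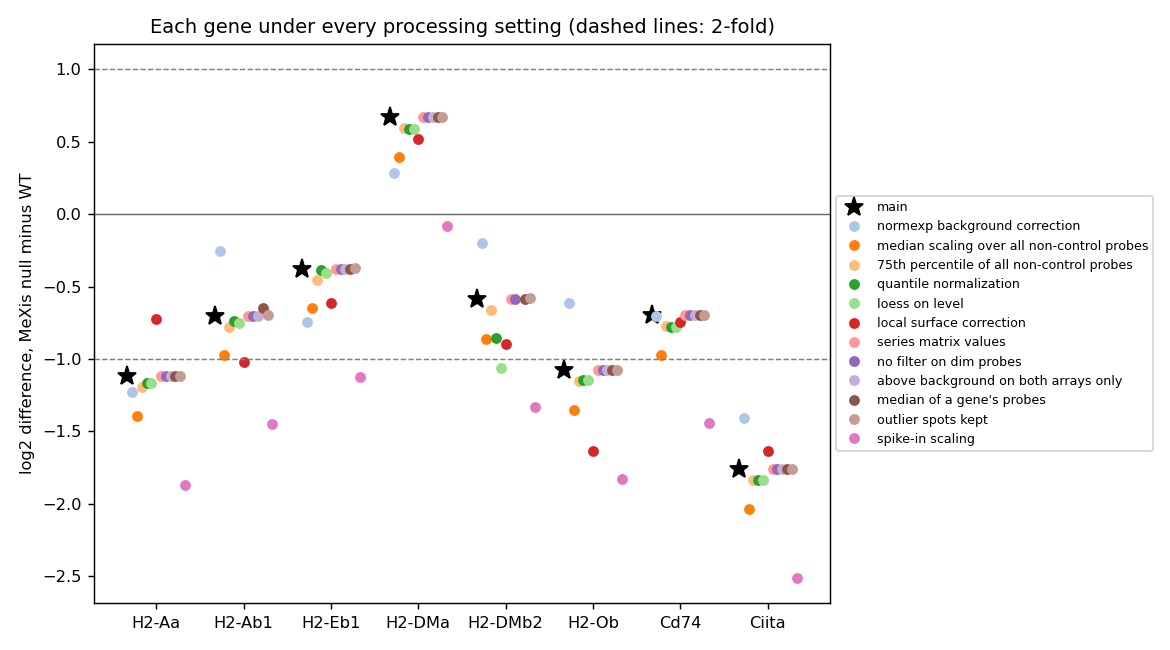
Log2 difference, MeXis null minus WT, of 8 members under the main setting (stars) and each alternative (dots), with dashed lines at 2-fold. Ciita stays below -1 throughout, between -2.51 and -1.41, and H2-DMa lies above 0 except with spike-in scaling.

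Known regulators of class II genes lay on both sides of 0. Of 22 listed, 21 were above background on both arrays, with a median of -0.13; 2 were lower by 2-fold or more and 1 was higher. The lower genes were the interferon regulatory factors Irf8 (4661 on the MeXis null array after scaling and 17521 on WT, 3.76-fold lower, -1.21 after local surface correction) and Irf4 (66.2 on MeXis null after scaling and 164 on WT, 2.48-fold lower, -0.92 after that correction). Irf8 drives the macrophage and dendritic cell programme, and Irf4 is used in B cells and alternatively activated macrophages. The acetyltransferase coactivator Ep300 was the higher one (1.35), but its probes disagreed in sign and it was at 0.73 after local surface correction and at -0.16 with normexp background correction. Its relative Crebbp differed by 0.24 with the same disagreement of probes, and was below 0 with normexp, median and spike-in scaling. Rfx5, the DNA-binding subunit of RFX, was above background on neither array. The RFX partners Rfxap (-0.17) and Rfxank (0.20) and the NF-Y subunits Nfya (0.20), Nfyb (-0.17) and Nfyc (-0.02), named because they bind the boxes printed above, were within 1.5-fold in the main setting. The probes of Nfyb and those of Nfyc disagreed in sign. Creb1, for which the X2 box is a site, differed by -0.54, or -0.74 after local surface correction, with probes that disagreed in sign. Of the RFX and NF-Y genes, Rfxank was below 0 with median and spike-in scaling, and Nfya also after local surface correction. Rfxap, Nfyb (0.67) and Nfyc were above 0 with normexp, Nfyc also after local surface correction.

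Antigen processing genes lay on both sides of 0. All 12 were above background on both arrays, with a median of 0.10 whose sign changed with median, loess and spike-in scaling, and 1 was at least 2-fold lower and 1 higher. Sppl2a, the intramembrane protease that clears the last membrane-bound piece of the invariant chain, was 3.94-fold lower, with probes that disagreed in sign, and at -1.07 after local surface correction. Legumain (Lgmn), an endosomal protease, was 2.98-fold higher, or 0.82 after local surface correction. Cathepsin Z (Ctsz) differed by 0.86 (1.57 with normexp) and Marchf8, a ubiquitin ligase that removes class II from the surface in other cells, by -0.54. Among 9 measured co-stimulation and uptake genes the median was -0.05, above 0 with normexp. The co-stimulatory ligand Cd80 was 3.41-fold lower (probes disagreed in sign), while Cd86, which binds the same receptors, differed by 0.92. The mannose receptor Mrc1 differed by -0.78 and the tetraspanin Cd9 by 0.57, or -0.18 with spike-in scaling.

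Of 16 listed neighbours of the class II genes on chromosome 17, none of 10 measured above background on both arrays was 2-fold lower or higher, and their median was -0.14. H2-Ke6 (-0.81, or -1.51 with normexp) and Rxrb (-0.37) were the lowest and the peptide loading genes Tapbp (0.59, or -0.07 after local surface correction) and Tap2 (0.39) the highest, both below 0 with spike-in scaling. H2-Eb2, a class II beta gene that is not a member, was above background on WT only and at least 1.11-fold lower. The collagen gene Col11a2 was above background on MeXis null only and read 3.18-fold higher, with a scanner error of 0.59 and no bound.

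Markers of other cells differed between the same 2 arrays, and their part in the class II values was not tested. Fewer cells of a type and less RNA per cell cannot be told apart in these pools. Of the 14 B cell markers 12 had a probe, 8 were above background on both arrays, and all 8 lay below 0, with a median of -0.85 and 3 at least 2-fold lower. After local surface correction the median was -1.09 and 5 were at least 2-fold lower; with normexp the median was -0.57. Their summed signal was 2486 on the MeXis null array after scaling and 4084 on WT, a log2 difference of -0.72, and without Cd22, the brightest marker, 956 on MeXis null and 2407 on WT, a log2 difference of -1.33. The signalling chain Cd79b was 3.24-fold lower (-1.04 with normexp) and the coactivator Pou2af1 2.33-fold (-1.93 after local surface correction). Cd79a was at -0.90 (-0.31 with normexp), Ms4a1 at -0.79, Cr2 at -0.53, Fcrla at -0.22 (-1.11 after local surface correction) and Cd22 at -0.13, the last above 0 with normexp or local surface correction. Pax5, the B cell identity factor, was above background on WT only and at least 1.97-fold lower. Bank1 was also on WT only and read 1.89-fold lower, with a scanner error of 0.39 and no bound. Fcer2a was on WT only with no fold, and Blk was on neither.

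Dendritic cell markers were thinner. Of 12, the defining genes Flt3, Zbtb46, Xcr1, Clec9a and Cd209a, and Itgae, were above background on neither array, and Kmo on WT only with no fold. The 5 measured had a median of -0.34 and a summed signal of 69446 on the MeXis null array after scaling and 73920 on WT, and without Itgax, the brightest, of 31918 on MeXis null and 46816 on WT. Ccr7 was 2.20-fold lower (-0.87 after local surface correction), Wdfy4 differed by -0.90, Siglech by -0.34 (-1.21 with normexp), Batf3 by 0.44 and Itgax by 0.47, the last pair below 0 with spike-in scaling.

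The label of the cells was checked on macrophage genes. All 10 general macrophage markers were above background on both arrays, among them Lyz2 (2.38-fold higher in MeXis null, 0.52 after local surface correction), Cd14 (0.86) and Mertk (3.85-fold lower, -1.16 after that correction). Their median of 0.26 was below 0 with median scaling, spike-in scaling or local surface correction. Of the small peritoneal macrophage and monocyte markers, the class II-rich side of the cavity, 9 of 12 were measured with a median of -0.39, 2 at least 2-fold lower and 1 higher. The other 3, Ccr2, Cd226 and Dpp4, were above background on neither array. Plac8 was 2.83-fold and Irf4 2.48-fold lower, Folr2 2.58-fold higher (0.88 after local surface correction), and Mgl2 was at 0.02, below 0 under each other scaling. The large peritoneal macrophage markers, 7 of 12 measured, had a median of 0.64, or -0.10 with spike-in scaling. Of the 7, 3 lay below 0 and 4 above, from Naip1 (-0.69) and Cd5l (-0.65) to Vsig4 (0.96) and F10 (2.26-fold higher, 0.43 after local surface correction). Their summed signal was 18009 on the MeXis null array after scaling and 10813 on WT. Without F10, the brightest, it was 3405 on MeXis null and 4337 on WT, a log2 difference of -0.35. The other 5, Timd4, Selp, Alox15, F5 and Ltbp1, were above background on neither array. Fibroblast markers had a median of 1.1 (7 measured, 4 at least 2-fold higher), with Fbn1 at 1.85 (1.25 with normexp), Loxl1 at 1.45, Dcn at 0.32 and Col3a1 at -0.13, Col3a1 lying above 0 after local surface correction and Dcn below 0 with spike-in scaling. The eighth fibroblast marker, Lum, was above background on WT only and read 3.41-fold lower, with a scanner error of 0.38 and no bound. Mesothelial markers had a median of 0.99 (8 measured, 4 at least 2-fold higher), with Wt1 at 1.61, Upk3b at 1.45 (0.58 after local surface correction, 0.54 with normexp), Msln at 0.47 and Krt8 at 0.28, the last pair below 0 with spike-in scaling. Among T and NK cell markers 3 of 10 were measured, Cd2 at -1.27 (-0.52 with normexp), Cd3e, the median, at -0.49 (0.06 with normexp) and Cd4 at 0.10 (below 0 with median and spike-in scaling). Cd5 was above background on WT only and read 2.67-fold lower, with a scanner error of 0.37 and no bound. Cd3d was on WT only with no fold.

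**Figure D5:**
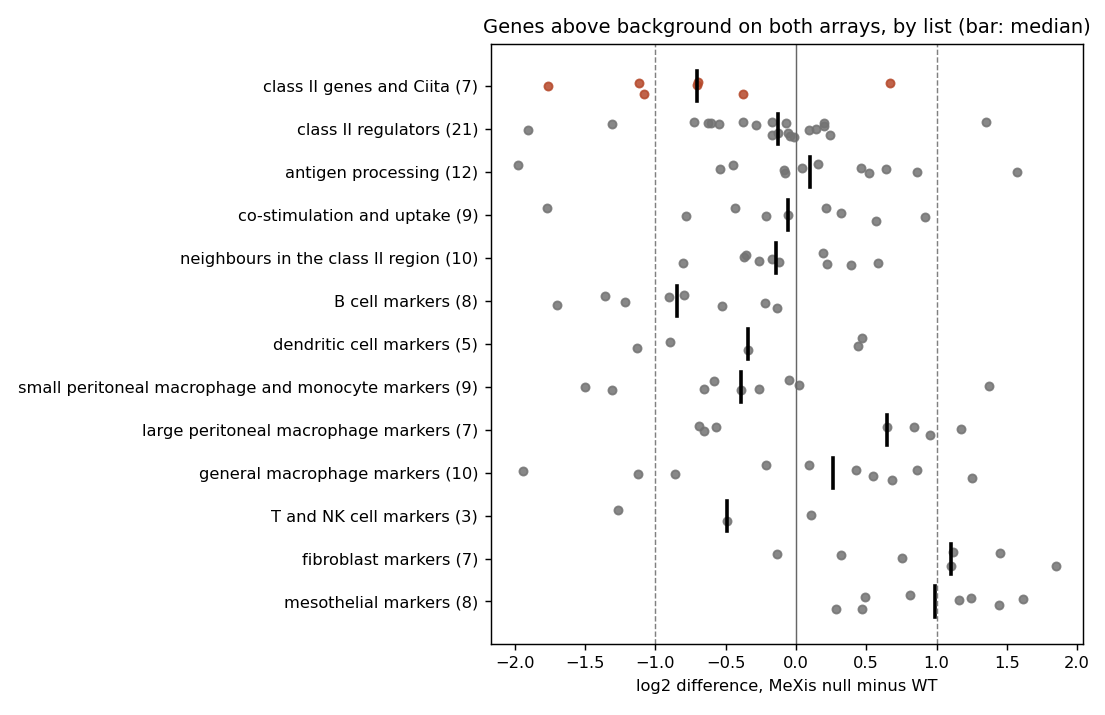
Log2 difference, MeXis null minus WT, of every gene above background on both arrays in each list (number measured in brackets), with the median as a bar and dashed lines at 2-fold. In the main setting the class II genes (red) had a median of -0.70. Medians were -0.85 for B cell markers and -0.49 for T and NK cell markers. They were -0.39 for small peritoneal macrophage and monocyte markers and -0.34 for dendritic cell markers. Chromosome 17 neighbours (-0.14), regulators (-0.13) and co-stimulation and uptake genes (-0.05) were also below 0. The medians of the remaining lists lay above 0. Whether any list has a part in the class II values was not tested.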

How the data were processed

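Values came from 1 one-colour array for each genotype. Per the file headers the deposited intensity was made with Agilent Feature Extraction 11.5.1.1, with its spatial and multiplicative detrending on and its separate background correction off. The deposited series matrix intensity equalled it in all 62976 features of both arrays (medians 17.0 on MeXis null and 12.9 on WT). Coordinates of probes are mm9 and those of promoters GRCm38.p6.

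Main values were log2 of the deposited intensity less its 75th percentile over spots passing the background criterion on both arrays. Control spots and outlier-marked spots (205 on MeXis null, 305 on WT) were left out; 0 were saturated. A gene was represented by its probe above background on most arrays, then by the brightest. A gene dim on 1 array was given its bright value over the dim reading, which is an estimate and no bound. Where the floor of that array was higher than the dim reading, the bright value over the floor was given as a bound. With 1 array per genotype no test or p-value was computed. The settings compared were normexp (limma 3.58.1, offset 50), other scalings, loess (span 0.3), local surface correction, dim-probe filters, the median of probes, outlier spots kept and other fold thresholds; spike-in scaling was added after seeing the data. The steps were tested on simulated data. Python 3.11.15 was used.

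Members, lists and settings were chosen with earlier results of these data known. Named were every member and probe, the 2 highest and 2 lowest of each list above background on both arrays, and B cell and dendritic cell markers above background on either. Genes below background on 1 or both arrays outside the B cell and dendritic cell lists, the RFX and NF-Y subunits and Creb1 were named after their values were seen. Some listed markers that the rule names are not reported here. H2-Ea and H2-Ea-ps shared 1 probe, Psmb8 had an outlier mark, and Ighm and Ighd had no matching name.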

Additional observations from a re-analysis of the deposited data

How the results depend on the processing

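The median of the members was -0.70 in the main setting and lay between -1.45 and -0.64 over 12 alternatives. The lowest came with spike-in scaling, which put 6 of 7 members at least 2-fold lower but moved the median of all genes to -0.72, with 29.8% of genes measured on both arrays 2-fold lower. The count of 3 was 5 at 1.5-fold, where 13.8% of all genes were lower by that much. It was 1 at 3-fold, and at that fold no share of all genes was computed. With normexp it was 2, where 5.18% of all genes were 2-fold lower and H2-Ob was at -0.61. Ciita was at least 2-fold lower under all 12 alternatives, and H2-Aa and H2-Ob each under 11. Of 95 values of single members, 84 moved by less than 0.47, the SD between spots. Many of the 95 could not move freely, so these counts overstate how far the settings tested each member. The series matrix intensity and changes of the dim-probe filter returned the main values, and the median of probes changed H2-Ab1 only. Keeping outlier spots, or scaling to a median, a percentile or spike-ins, shifted every member by the same amount. Normexp, quantile normalization, loess and local surface correction could move each member differently, and there Ciita ran between -1.83 and -1.41. Among all genes past 2-fold, 37.2% were lower, against 47.4% with normexp, 71.7% with median scaling, 47.9% with loess, 48.6% after local surface correction, 21.4% with no filter on dim probes and 96.6% with spike-in scaling. Median scaling moved the median of all genes to -0.25. No paired analysis was possible because each genotype has 1 array. Bright members are limited by the spread between spots, and H2-Ob and Ciita on MeXis null also by their low signal over background.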
